A study of Mus musculus with 26 samples.

Results

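The regions compared here were the peaks called with PeaKDEck, a kernel density peak caller, in Klf4-/- mouse embryonic stem cells (mESC) that re-expressed either WT KLF4 or the R462A mutant of KLF4. They were chosen by sample title, as the lists of M-ATAC-WT1 and M-ATAC-WT2 for WT and of M-ATAC-Mut1 and M-ATAC-Mut2 for the mutant. After overlapping entries were merged, these 4 lists held 33619 of the 493380 peak regions in the 20 lists of single samples. The study behind them tagged accessible or immunoprecipitated chromatin with a transposase that carries methylated adaptors, so that bisulfite sequencing gave DNA methylation on the same fragments (M-ATAC and M-ChIP). All cells were of the KH2 strain and were grown on irradiated feeder cells with serum and LIF, then freed of most feeders by pre-plating. The knockout cells received the WT or R462A KLF4 from a lentivirus with a doxycycline-inducible tetO promoter, were selected with puromycin and were induced with doxycycline, so KLF4 was not under its own promoter. Klf4-/- cells without any KLF4, immunoprecipitated with the KLF4 antibody that the labels also give for KLF4-M-ChIP (KLF4-ChIP-KO, 2 samples), gave the antibody background. Their title says ChIP and not M-ChIP, so adaptors and bisulfite conversion may differ between them and the WT and mutant libraries. What such a difference contributed to the comparisons with the Klf4-/- lists was not tested. Open chromatin, CTCF sites and expression came from KH2 mESC with their own Klf4, so these measures describe other cells than the ones in which KLF4 was expressed from the virus.

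KLF4 is a Krüppel-like factor with C-terminal zinc fingers that binds GC-rich and CACC-type DNA, and it is one of the factors that reprogram somatic cells to pluripotency. In mESC it acts downstream of LIF and STAT3 beside KLF2 and KLF5. The arginine replaced in R462A lies in a zinc finger and has been linked to recognition of methylated CpG. CTCF, by contrast, is a zinc finger protein of insulators and loop anchors with an unrelated motif.

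The assay behind these lists was in doubt. Title and description put all 4 samples under M-ATAC, that is, chromatin accessibility with bisulfite conversion. The lists, however, carried the library names that the labels give to the KLF4-M-ChIP samples of the same genotypes (4 samples). No list under those samples was among the files used, and the study's methods name PeaKDEck for KLF4 only. The measured overlaps were set beside this doubt. Of the WT regions, 28.1% (replicate 1) and 39.2% (replicate 2) lay in a merged M-ATAC peak of mESC, and of the mutant regions 1.76% and 3.23% did. Single M-ATAC samples of mESC had 98.6% to 99.5% of their regions there, ATAC samples 92.7% to 95.5%, and CTCF-M-ChIP samples at most 23.8%. CTCF-M-ChIP samples without bisulfite conversion (CTCF-M-ChIP-NC) had at most 27.2%. The WT and mutant lists thus lay below every accessibility list of mESC in this share. Of the 1000 M-ATAC peaks with the highest fold enrichment, WT replicates 1 and 2 touched 101 and 180. Mutant replicates 1 and 2 touched 9 and 15. M-ATAC samples touched 99.2% to 99.7% of them, CTCF-M-ChIP samples 5.5% to 8.0% and CTCF-ChIP samples 8.4% to 13.6%. The Klf4-/- lists, which are antibody ChIP with the same caller, had 61.2% and 57.6% of their regions in M-ATAC peaks and touched 237 and 344 of the 1000 strongest, so the CTCF samples do not bound what a ChIP list can have. Caller and cells both differed between the KLF4 lists and the mESC lists, and their part in these shares was not tested. The lists are called KLF4 peaks below with this doubt.

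WT lists held more peaks than mutant lists. WT replicates 1 and 2 had 9329 and 11754 peak regions, and mutant replicates 1 and 2 had 7000 and 5536. Both WT samples lay above both mutant samples, and the groups did not overlap, with 10541.5 ± 1715 regions in WT and 6268 ± 1035 in the mutant (SD, n = 2 each; 1.68 times as many; exact permutation test, two-sided, p = 0.333). The lists ended at unequal p-values, with the largest p at 9.52e-05 and 6.87e-05 in WT and 7.62e-05 and 5.58e-05 in the mutant. With only peaks at or below 4.02e-05 kept, the means were 4820 in WT and 3839.5 in the mutant, a difference of 980.5, and the groups overlapped (exact permutation test, two-sided, p = 0.667). The p of 0.333 is the smallest that 2 samples against 2 can give, so none of the 8 measures tested here could pass 0.05, and after Benjamini-Hochberg adjustment over the 8 all remained at 0.333. Nothing in the labels says that replicates were separate cultures, so the spread between samples of a genotype may be technical. In this permutation test a p of 0.333 says only that both samples of 1 genotype lay above both of the other, whatever the spread. The Klf4-/- lists had 8853 and 14250 regions, 1 below and 1 above both WT lists. The lists are marked as called on subsampled reads, without the number of reads kept, and the part of read depth in the numbers of peaks was not tested.

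The p-value of single peaks separated the genotypes little. Median p was 4.86e-05 and 5.15e-05 in WT replicates 1 and 2, 4.02e-05 in both mutant replicates, and 1.02e-05 and 2.47e-05 in the Klf4-/- lists. The mutant peaks therefore had slightly smaller p-values at the median, with no overlap between the groups, and the WT median -log10 p minus that of the mutant was -0.0948 (exact permutation test, p = 0.333). This direction turned when only stronger peaks were compared: the difference was 0.271 when only peaks with p at or below 4.02e-05 were kept and 0.199 when the strongest 5536 peaks of each list were compared. Both limits select on p itself and removed more of the WT lists, so the turn is partly by construction, and no direction was read from the median p. Peaks at the smallest p in the lists, 1e-12, made up 6.75% and 4.94% of the WT regions and 4.20% and 4.90% of the mutant regions, so this share was nearly equal in WT replicate 2 and mutant replicate 2. Weak peaks made up most of each list.

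Replicates shared more of their peaks in WT than in mutant cells. WT replicate 1 had 36.4% of its regions in replicate 2, and WT replicate 2 had 28.9% in replicate 1. Mutant replicate 1 had 13.6% of its regions in replicate 2, and mutant replicate 2 had 17.1% in replicate 1. Both mutant lists overlapped WT replicate 1 (17.3% of either) at least as often as they overlapped each other, but WT replicate 2 less often (13% of replicate 1 and 13.5% of replicate 2). With the strongest 5536 regions of each list, 40.8% of WT replicate 1 lay in WT replicate 2, against 15.8% of mutant replicate 1 in mutant replicate 2 and again 15.8% of mutant replicate 1 in WT replicate 1, but 9.18% in WT replicate 2. Of mutant replicate 2, 13.3% then lay in WT replicate 1 and 8.98% in WT replicate 2. Overlap rose with peak strength in both genotypes. Among peaks at the smallest p in the lists, 97.3% and 97.9% of the WT regions and 81.0% and 83.8% of the mutant regions lay in the other replicate, while among peaks with p above 1e-05 the shares were 25.6% and 19.9% in WT and 8.16% and 10.6% in the mutant.

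Stretches covered by both replicates numbered 3408 in WT and 959 in the mutant. Klf4-/- peaks touched 1176 of the WT stretches (34.5%) and 266 of the mutant stretches (27.7%), and these were removed as antibody background. The 2232 WT and 693 mutant regions that remained stood in a ratio of 3.22, while with the strongest 5536 peaks of each list 1332 WT and 631 mutant regions remained. From the whole lists, 194 of the 2232 WT regions (8.69%) overlapped 194 of the 693 mutant regions (28.0%) and are called common. This left 2038 WT only regions and 499 mutant only regions. Few WT only regions overlapped any mutant peak: 202 of them (9.91%) overlapped a peak of either mutant list. Of the mutant only regions, 241 (48.3%) overlapped a peak of either WT list and so were mutant only by the rule that both WT replicates be covered. The need for 2 replicates set these counts: with a single list for WT the WT regions numbered 9639 without replicate 1 and 7648 without replicate 2, and with a single list for the mutant the mutant regions numbered 5012 without replicate 1 and 6383 without replicate 2. The common regions numbered 349 without WT replicate 2 and 300 without mutant replicate 2. With no removal of Klf4-/- peaks, 359 WT regions were common.

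WT peaks lay near transcription starts more often than mutant peaks, though most peaks of either genotype did not. Promoters, taken as 3 kb around any transcription start of GENCODE M21, held 34.2% and 41.7% of the regions of WT replicates 1 and 2 and 19.5% and 20.7% of those of mutant replicates 1 and 2. Both WT lists were above both mutant lists, and the mutant shares were nearer to the 15.1% of the genome that lies in such promoters. The means were 38.0% ± 5.28 and 20.1% ± 0.819 (SD, n = 2 each), a difference of 17.9 percentage points (exact permutation test, two-sided, p = 0.333). The Klf4-/- lists had 39.1% and 33.8% of their regions in promoters, as high as WT. Intervals below are 95% Wilson intervals and cover counting error only.

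In the shared regions the contrast in place was wider. Of the 2038 WT only regions, 984 (48.3%, 46.1% to 50.5%) were in promoters, against 49 of 194 common regions (25.3%, 19.7% to 31.8%) and 75 of 499 mutant only regions (15.0%, 12.2% to 18.4%). The common regions stood between the others. Much of this widening needed both WT replicates: the difference of 33.3 percentage points was 23.2 without WT replicate 1 and 16.1 without WT replicate 2, where the whole lists gave 21.6 and 14.1. Within 1 kb of a start lay 39.1% of WT only, 13.4% of common and 5.81% of mutant only regions, and 0.401% of mutant only regions covered a start. The median distance to a start was 3447.5 bp for WT only, 9349 bp for common and 11911 bp for mutant only regions. Introns held 22.6% of WT only and 43.3% of mutant only regions, intergenic sequence held 25.1% and 40.3%, and exons away from promoters held 4.02% and 1.40%. Mutant only regions were thus in introns and between genes in most cases. Their promoter share of 15.0% was close to the 15.1% of the genome that lies in promoters. Genome shares of introns and intergenic sequence were not set beside these.

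Genes nearest to WT peaks were more highly expressed in mESC than those nearest to mutant peaks. Over the distinct genes with the nearest start, median expression in TPM (transcript levels scaled to library size, replicates merged by the authors, so with no error) was 0.98 and 1.90 TPM for WT replicates 1 and 2, 0.14 TPM for both mutant replicates, and 1.755 and 0.75 TPM for the Klf4-/- lists. WT was higher than the mutant in both replicates, by 1.3 TPM on average (SD 0.651 in WT, n = 2 each; exact permutation test, two-sided, p = 0.333). Without WT replicate 2 the difference was 0.84 TPM, and without WT replicate 1 it was 1.76 TPM. Over protein-coding genes alone the means were 8.62 TPM in WT and 4.48 TPM in the mutant, a difference of 4.14 TPM but a much smaller ratio. The difference was 3.26 TPM with peaks at or below 4.02e-05, 3.01 TPM with the strongest 5536 peaks and 3.51 TPM over genes of at least 1 TPM. In the last case the means were 17.7 TPM in WT and 14.2 TPM in the mutant, again a much smaller ratio. Among the shared regions, the median was 4.905 TPM for 1870 genes nearest to WT only regions, 0.095 TPM for 172 genes of common regions and 0.135 TPM for 466 genes of mutant only regions. For the nearest protein-coding genes instead, the medians were 11.11, 1.24 and 2.50 TPM, beside 2.77 TPM for all 21607 protein-coding genes of the table. These are partly different genes, and what genes that do not code for protein contributed to the low medians was not tested. At least 1 TPM was reached by 76.6% of the protein-coding genes nearest to WT only regions (74.5% to 78.5%), by 50.9% (43.3% to 58.5%) for common, by 59.1% (54.5% to 63.6%) for mutant only regions and by 57.1% of all. Without WT replicate 2 the shares were 69.4% for WT only and 59.6% for mutant only regions. Genes of mutant only regions were near the level of all genes in this share, but with a single mutant list the share was 63.3% without mutant replicate 1 and 63.7% without mutant replicate 2. WT only regions at promoters were nearest to protein-coding genes with a median of 16.12 TPM, and those away from promoters to genes with a median of 6.37 TPM.

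The expression table had the marks of stem cells. The 8 stem cell markers Pou5f1, Sox2, Nanog, Zfp42, Esrrb, Dppa5a, Utf1 and Tdgf1 had a median of 469 TPM, and the lowest was at 228.85 TPM. The 16 feeder fibroblast markers summed to 271.98 TPM, with Acta2 highest at 85.3 TPM, Col1a1 at 48.69 TPM and 2 of them below 1 TPM. What feeder RNA contributed to the nearest gene values was not tested.

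Of all protein-coding genes, 954 (4.42%) had a WT region and 70 (0.324%) a mutant region within 3 kb of a start. WT only regions gave 932 genes (4.31%), with a median of 18.065 TPM, common regions 26 genes (0.12%) with 0.355 TPM, and mutant only regions 45 genes (0.208%) with 3.38 TPM. Of the gene lists chosen for these cells, the WT regions reached 1 of 30 pluripotency genes, 1 of 15 genes of LIF and STAT3 signalling, 2 of 26 KLF and SP genes, 2 of 17 genes of DNA methylation, 1 of 20 epithelial genes, 0 of 25 lineage transcription factors and 0 of 16 fibroblast markers. All 7 of these genes had WT only regions. Counts this small were near the background of 4.42%, and nothing particular to a list was read from them. The mutant regions reached 1 list gene, Sp7. When Klf4-/- overlap was kept, 1573 protein-coding genes (7.28%) had a WT region and 91 (0.421%) a mutant region, and the lists then counted 3 pluripotency genes (Fbxo15, Tfcp2l1, Zfp42), 4 LIF and STAT3 genes (Junb, Lifr, Mycn, Pim3), 6 KLF and SP genes (Klf10, Klf11, Klf13, Klf14, Klf3, Klf9), 3 genes of DNA methylation (Dnmt3b, Mbd2, Mbd3), 2 keratins (Krt18, Krt8), and Col1a1, all with WT regions.

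Tfcp2l1, a transcription factor of naive pluripotency (95.09 TPM), had a WT only region over its start at chr1:118627701-118628000 (GRCm38/mm10) with p of 4.97e-05 and 3.48e-05 in replicates 1 and 2. Pim3, a kinase gene induced by STAT3 (93.21 TPM), had one over its start at chr15:88861901-88862250 with p of 4.86e-05 and 2.29e-06. Among the KLF genes, Klf9 (96.19 TPM) had a WT only region 376 bp from its start at chr19:23140551-23140850 with p of 1.26e-05 and 6.87e-05. Klf14 (0.07 TPM) had one 878 bp away at chr6:30957901-30958200 with p of 9.52e-05 and 2.90e-05, so a region near a start went with a high level at one KLF gene and almost none at the other. Dnmt3b, a de novo DNA methyltransferase (48.62 TPM), had a WT only region at chr2:153649901-153650450, 284 bp from its start, with p of 3.38e-05 and 5.67e-06. Mbd3, a subunit of the NuRD complex (95.64 TPM), had one over its start at chr10:80399501-80399800 with p of 9.52e-05 and 2.29e-06. Krt8, a keratin of simple epithelia (46.99 TPM), had one at chr15:102003001-102003450, 1032 bp from its start, with p of 1.26e-05 and 5.70e-06. These 7 regions all lay in M-ATAC peaks of mESC and outside CTCF peaks. The mutant only region at Sp7, an osteoblast factor listed at 0.2 TPM, lay 169 bp from its start, outside M-ATAC and CTCF peaks, with p of 2.65e-05 and 7.68e-06.

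At any distance, 1880 protein-coding genes (8.7%) were nearest to a WT region and 574 (2.66%) to a mutant region. The pluripotency genes among the former were Fgf4, Prdm14, Sox2, Tbx3 and Tfcp2l1, 5 of 30, and the more distant genes in this paragraph were named after their values were seen. The other lists had 3 of 15 LIF and STAT3 genes (Jak2, Pim1, Pim3), 3 of 20 epithelial genes (Cdh1, Grhl2, Krt8), 3 of 26 KLF and SP genes (Klf14, Klf3, Klf9), 2 of 17 genes of DNA methylation, 2 of 25 lineage factors (Sox7, T) and 1 of 16 fibroblast markers (Thy1). Mutant regions were nearest to Tbx3, Sp4, Sp7, Grhl2, Krt18, Eomes and Prrx1. Sox2, a core factor of the stem cell state (476.51 TPM), had WT only regions at chr3:34795401-34795800 and chr3:34805751-34805850, 144996 and 155346 bp from its start. Tbx3, a T-box factor of the LIF network (82.14 TPM), had a WT only region at chr5:119543651-119544200 that was among the stronger ones, with p of 1e-12 and 2.26e-08, 126469 bp from its start, and weaker WT only and mutant only regions elsewhere. Prdm14 (18.58 TPM), which represses germ layer and DNA methyltransferase genes, had one at chr1:13103901-13104200, and Klf3 (97.48 TPM) had more than 1, the stronger at chr5:64714601-64715050. Distance alone tied these regions to the genes, and no contact was measured.

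Klf4 itself, deleted in these cells but left in the reference, had no shared region within 3 kb. Within 100 kb of its start both WT lists had 1 peak, at chr4:55477351-55477850 in replicate 1 and chr4:55477301-55477850 in replicate 2, 53920 bp away in both, with p of 2.28e-06 and 1.51e-05. Neither mutant list had a peak within that distance. Both Klf4-/- lists had peaks at the same place, with p of 1.31e-05 in replicate 1 and 1e-12 in replicate 2, so the region counted as antibody background. It lay in an M-ATAC peak, and Klf4 stood at 270.41 TPM in mESC with their own Klf4.

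Both replicates were at the smallest p, 1e-12, in 66 WT only regions, so the 10 described here were taken from these by length and then position. Among them, 5 were in promoters and 8 in M-ATAC peaks. Of these, 9 were nearest to Gm26897, 2900026A02Rik, Podxl, Pyroxd1, Chrnb3, Slc25a38, Rpa1, Ank and Rrp1b. Podxl, which codes for a sialomucin of the cell surface (50.57 TPM), had its region at chr6:31526751-31527500, 2440 bp from the start. Pyroxd1 (7.34 TPM) and Slc25a38, a mitochondrial glycine carrier (11.16 TPM), had regions over their starts at chr6:142345201-142345950 and chr9:120110401-120111150. The region of Rpa1 (172.81 TPM), a subunit of the single-stranded DNA binding complex, lay 59188 bp from its start at chr11:75282251-75283000, and that of Ank (9.18 TPM) lay 161877 bp away at chr15:27304051-27304800. Chrnb3, a nicotinic receptor subunit listed at 0 TPM, and the region of Slc25a38 were the ones that also overlapped CTCF peaks.

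The KLF core was more frequent in WT than in mutant peaks. It was searched as GGGCGTGG, which holds a CpG, or GGGTGTGG, on either strand of the 200 bp around each midpoint. It was found in 15.0% and 19.7% of the regions of WT replicates 1 and 2, in 1.40% and 1.66% of those of mutant replicates 1 and 2, and in 8.93% and 7.70% of the Klf4-/- regions. Both WT lists stood far above both mutant lists (17.4% ± 3.31 against 1.53% ± 0.185, SD, n = 2 each; exact permutation test, two-sided, p = 0.333). In the 100 bp around the midpoint the difference of 15.8 percentage points was 10.2. The mutant shares were at the 1.58% of genome windows taken each 5 kb, and the Klf4-/- shares near the 8.97% of merged M-ATAC peaks.

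In the shared regions the core was found in 632 of 2038 WT only regions (31.0%, 29.0% to 33.1%), in 0 of 194 common regions (upper limit 1.94%) and in 2 of 499 mutant only regions (0.401%, 0.110% to 1.45%). GGGCGTGG stood in 19.9% of WT only windows and GGGTGTGG in 14.4%, and the mutant only windows held only GGGTGTGG. The share in WT only regions rested on both WT replicates, and it was 18.9% without replicate 1 and 13.6% without replicate 2. Reference windows of the same length held the core in 9.46% of M-ATAC peaks at promoters, 5.54% at protein-coding starts and 2.19% of CTCF peaks. The share did not rise steadily with CpG content among WT only regions: with 0 to 2 CpGs in the window it was 25.5%, with 3 to 5 it was 38.0%, with 6 to 10 it was 31.5% and with 11 or more it was 31.3%, while in M-ATAC peaks the corresponding shares ran from 8.24% to 9.83%. At promoters 32.2% of WT only regions held the core and away from them 29.9%. In M-ATAC peaks 38.1% held it and outside them 22.9%. In open chromatin WT only regions thus held the core more often than M-ATAC peaks in general, and outside it more often than windows of the genome, which had a lower GC content.

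Matches in WT only windows differed from those in M-ATAC peaks in their form and flanks. Since copies within a window are not independent, only windows with 1 match were counted, a choice made after all matches had been seen. These were 422 of the 632 WT only windows and 5322 of the M-ATAC peaks. Of these matches, 61.6% were GGGCGTGG in WT only windows and 37.7% in M-ATAC peaks. The base before the core was T in 48.8% (44.1% to 53.6%) against 38.7%. After it came C in 55.2% (50.4% to 59.9%) against 41.1%, and the second base after it was C in 56.4% (51.6% to 61.1%) against 31.8%. The flanks were not split by the form of the core, so what the unequal forms contributed to the flank differences was not tested. A match is a description of the letters and not a measured site. The following stretches show the core in capitals with 10 bases on each side, for list genes and strong regions where a WT only window held it, on the strand that reads as the core (RefSeq sequence of GRCm38).

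Tfcp2l1, minus strand, chr1:118627874-118627901: gtggcattagGGGCGTGGttattgcagg
Tfcp2l1, minus strand, chr1:118627888-118627915: gccgtcaggtGGGCGTGGcattaggggc
Krt8, plus strand, chr15:102003185-102003212: gctcgcagagGGGCGTGGgtaggccgac
Pyroxd1, plus strand, chr6:142345510-142345537: ttcaagatgtGGGCGTGGtaacagccgg
Slc25a38, minus strand, chr9:120110765-120110792: cccgacggaaGGGCGTGGccttggtgaa
Sox2, minus strand, chr3:34795664-34795691: gcaaagggaaGGGCGTGGcgccggggga
Tbx3, plus strand, chr5:119543909-119543936: tggttggagtGGGCGTGGccctgtagga
Tbx3, plus strand, chr5:119543943-119543970: gagttactgtGGGCGTGGgctttaatac
Klf3, minus strand, chr5:64714871-64714898: ccccacagcaGGGCGTGGcctatcaagt
Podxl, plus strand, chr6:31527151-31527178: acctgctataGGGTGTGGccctgtcccc
Prdm14, minus strand, chr1:13104087-13104114: gctaagcgtaGGGTGTGGctagagatcc

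The core was in 2 of the 7 regions at list genes described above and in 4 of the 10 strong WT only regions, and the others held none. Matches at Cdh1 (1), a further Klf3 region (2), a further Sox2 region (3) and Gm26897 (4) are not among these stretches, and all of them were GGGTGTGG, so the share of each form among the stretches is not that of the regions. At Tfcp2l1 the matches overlapped in their flanks and lay just upstream of the start, and no base of these 11 stretches was in a UTR. The whole 200 bp window of the Krt8 promoter region, which held 15 CpGs and 1 match, is given on the plus strand with the core in capitals.

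Krt8, chr15:102003126-102003325: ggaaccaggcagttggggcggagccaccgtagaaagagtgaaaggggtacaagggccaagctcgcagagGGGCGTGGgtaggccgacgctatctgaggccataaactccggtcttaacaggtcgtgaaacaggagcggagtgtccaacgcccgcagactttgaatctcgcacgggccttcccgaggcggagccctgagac

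Repeated sequence made up much of the common and mutant only regions. Over 50% of the bases were soft-masked as repeats in 73.7% of mutant only regions (69.7% to 77.4%) and in 67.0% of common regions, but in 20.9% of WT only regions. In the whole lists the contrast was smaller, with 32.7% and 21.2% of the regions of WT replicates 1 and 2 and 48.2% and 39.9% of those of mutant replicates 1 and 2. Of the regions of Klf4-/- replicates 1 and 2, 15.0% and 20.9% were over 50% soft-masked. Mean GC content was 40.8% in mutant only, 44.4% in common and 53.5% in WT only regions. Their 200 bp windows held 0.898, 1.87 and 6.85 CpGs on average in that order. The commonest 8-letter word stood at least 5 times in 60.9% of mutant only windows, 57.2% of common windows, 14.9% of WT only windows and 0.599% of 6673 merged M-ATAC peaks taken at even steps. Without regions over 50% soft-masked, 1676 WT and 195 mutant regions were left, 62 of the former common, and the core stood in 33.6% of WT only and 0 mutant only windows.

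Common regions were the strongest of the shared regions. Both WT replicates were at the smallest p in the lists in 26.3% of common regions but in 3.24% of WT only regions, and both mutant replicates were in 0.802% of mutant only regions. The weaker replicate had a median p of 1.54e-05 in common, 4.86e-05 in WT only and 4.02e-05 in mutant only regions. Among the 195 pairs of overlapping WT and mutant stretches, both were at 1e-12 in 50. The mutant p was smaller in 110 and the WT p was smaller in 35. The lists ended at unequal p-values and their read depth is not given, so no direction was read from these counts. Of the 51 common regions at 1e-12 in both WT replicates, the 5 longest were taken, among which Gm10715, Gm10717 and Gm11168 named stretches between chr9:3006451 and chr9:3038450, at the start of the assembled chromosome, and H60c one near the start of chromosome 10. Between 3 and 4 Mb, where the assembled sequence of mouse chromosomes begins, lay 14.4% of common, 2.40% of mutant only and 0.981% of WT only regions. Tmem125 (1.72 TPM) was nearest to the remaining one of the 5, at chr4:118547601-118548850, which lay in M-ATAC and CTCF peaks.

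Of the 5 strongest mutant only regions, that of Msl2, which codes for a subunit of a histone acetyltransferase complex (24.02 TPM), lay in an intron at chr9:101097451-101098000, and that of Eif4enif1 (53.67 TPM) at chr11:3198801-3199350, 3042 bp from the start of this gene and within 3 kb of another transcription start. The others, nearest to Ctnnd2, Robo2 and H60c, were intergenic and mostly soft-masked, and that of Robo2 lay in M-ATAC and CTCF peaks. The stretches below are plus-strand windows of 200 bp with the commonest 8-letter word in capitals, shown because they carry the repeats: Tmem125 for common, Msl2 for mutant only, and Gm26897 and Chrnb3 for WT only regions.

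Tmem125, chr4:118548126-118548325: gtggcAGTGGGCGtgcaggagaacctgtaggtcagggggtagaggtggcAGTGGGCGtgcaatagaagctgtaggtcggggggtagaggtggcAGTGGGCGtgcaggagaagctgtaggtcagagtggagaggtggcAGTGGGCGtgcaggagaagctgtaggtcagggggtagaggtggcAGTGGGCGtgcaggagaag
Msl2, chr9:101097626-101097825: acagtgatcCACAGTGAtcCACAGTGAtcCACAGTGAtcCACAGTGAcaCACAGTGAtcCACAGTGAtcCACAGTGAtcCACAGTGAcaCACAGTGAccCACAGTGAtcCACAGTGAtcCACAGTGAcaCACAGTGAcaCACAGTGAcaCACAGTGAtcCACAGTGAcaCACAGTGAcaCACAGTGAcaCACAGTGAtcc
Gm26897, chr5:111757726-111757925: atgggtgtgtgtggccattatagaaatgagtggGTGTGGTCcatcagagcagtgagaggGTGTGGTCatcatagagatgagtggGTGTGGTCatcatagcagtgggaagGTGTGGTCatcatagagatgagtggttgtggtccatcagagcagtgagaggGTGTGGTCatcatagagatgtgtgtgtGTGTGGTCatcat
Chrnb3, chr8:27362126-27362325: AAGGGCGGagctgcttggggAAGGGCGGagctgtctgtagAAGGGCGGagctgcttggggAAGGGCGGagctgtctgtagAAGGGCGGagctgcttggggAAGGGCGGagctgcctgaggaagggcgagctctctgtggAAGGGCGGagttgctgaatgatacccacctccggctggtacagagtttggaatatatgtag

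The words stood 5 times at Tmem125, 19 times at Msl2, 6 times at Gm26897 and 7 times at Chrnb3. At Tmem125 the window held the first 7 letters of the core, GGGCGTG, 5 times but no whole core. Gm26897 held GGGTGTGG 4 times within repeated units, so its matches are copies of a sequence and not independent. Tandem repeats thus occurred also among the strongest WT only regions.

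CTCF peaks overlapped WT peaks more often than mutant peaks. Of the regions of WT replicates 1 and 2, 5.13% and 6.97% overlapped a merged CTCF M-ChIP peak of mESC by at least 1 bp, against 1.39% and 1.97% in mutant replicates 1 and 2 and 12.8% and 10.2% in the Klf4-/- lists. WT lay above the mutant in both samples and below the antibody background (6.05% ± 1.3 against 1.68% ± 0.412, SD, n = 2 each; exact permutation test, two-sided, p = 0.333). Where 50% of a peak had to be covered by CTCF, the shares were 2.56% and 0.662%, a difference of 1.90 percentage points in place of 4.37. CTCF peaks covered 0.362% of the genome. Among the shared regions, 149 WT only regions (7.31%, 6.26% to 8.52%), 13 common regions (6.70%, 3.96% to 11.1%) and 3 mutant only regions (0.601%, 0.205% to 1.75%) overlapped CTCF peaks. Without WT replicate 2 the WT only share was 3.56%. With peaks shared by both CTCF-ChIP samples instead, the shares were 7.26% (6.21% to 8.47%), 2.58% (1.11% to 5.89%) and 0.601%, so whether common regions equalled WT only regions depended on the CTCF list.

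Most of the overlap of WT only regions with CTCF was in open chromatin. In mutant replicates 1 and 2, 62 of 97 and 66 of 109 regions with CTCF lay outside M-ATAC peaks. Of the common and mutant only regions with CTCF, 7 of 13 and 2 of 3 lay outside them. In M-ATAC peaks 120 of 1089 WT only regions (11%, 9.29% to 13%) overlapped CTCF, close to the 12.7% of all merged M-ATAC peaks, and outside them 29 of 949 (3.06%, 2.14% to 4.35%) did. The CTCF peaks touched by WT only regions had a median fold enrichment of 10.3, against 9.69 for all CTCF peaks. The KLF core stood in 23.5% of the WT only regions with CTCF and in 31.6% of those without. Overlap with CTCF was therefore not more frequent at WT only regions in open chromatin than at open chromatin in general. Klf4-/- peaks had been removed from the WT only regions but not from the M-ATAC peaks. With Klf4-/- overlap kept, 269 of 1920 WT regions in M-ATAC peaks overlapped CTCF, slightly above the share of all M-ATAC peaks. The direction thus depended on this removal.

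Open chromatin of mESC overlapped the genotypes very differently. The shares in M-ATAC peaks given above averaged 33.7% ± 7.83 in WT and 2.50% ± 1.04 in the mutant (SD, n = 2 each; exact permutation test, two-sided, p = 0.333), with 61.2% and 57.6% in the Klf4-/- lists. Against peaks shared by both ATAC samples the difference of 31.2 percentage points was 18.7. Peaks of M-ATAC covered 0.836% of the genome. Klf4-/- peaks themselves overlapped 18% of the regions of either WT list and 8.81% and 9.47% of those of the mutant lists, so the antibody background also took a larger part of the WT lists (exact permutation test, two-sided, p = 0.333). This difference of 8.87 percentage points was 16.0 with peaks at or below 4.02e-05, 16.4 with the strongest 5536 peaks and 5.23 against regions shared by both Klf4-/- lists. Of the shared regions, 1089 WT only (53.4%, 51.3% to 55.6%), 11 common (5.67%, 3.20% to 9.87%) and 4 mutant only (0.802%, 0.312% to 2.04%) lay in M-ATAC peaks. Without WT replicate 1 the WT only share was 33.2%, and without WT replicate 2 it was 22.1%. Peaks shared by both ATAC samples overlapped 28.9%, 1.03% and 0.401%. WT only regions touched M-ATAC peaks with a median fold enrichment of 10.9, above the 7.07 of all such peaks. The few touched by common (11 peaks) and mutant only regions (4 peaks) had medians of 9.22 and 9.61, also above that of all.

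DNA methylation at these regions was read from M-ATAC of mESC with their own Klf4, as the authors' percent for each cytosine of merged replicates. Methylation in the WT and mutant cells was not analysed here, since no file used gave it. The mean over cytosines, with no limit on depth, was 1.47% in WT only regions (37211 cytosines in 1042 of the 2038 regions), against 4.36% in all merged M-ATAC peaks. At promoters it was 0.723%, against 1.70% in M-ATAC peaks at promoters, and away from them it was 7.14%, against 14.7%. The CpG within GGGCGTGG had a mean of 4.62% in WT only windows (712 cytosines) and 9.79% in M-ATAC peaks (5188 cytosines). WT only regions were thus in little-methylated DNA where it could be measured, which was almost only in M-ATAC peaks. Of the 1636992 cytosines with a value, 1632859 lay in such peaks. Common and mutant only regions had too few measured cytosines for a comparison, 102 in 9 regions (mean 32.4%) and 15 in 2 regions (mean 5.58%).

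Chromosome 8 held more of these peaks than its size would give. It makes up 4.75% of the genome and held 17.3% and 14.8% of the regions of WT replicates 1 and 2, 19.4% and 20.2% of those of mutant replicates 1 and 2, and 11.3% and 10.5% of those of the Klf4-/- lists. In the 14 MACS2 lists of KH2 mESC it held 4.92% to 5.40%. The excess was present in all 6 PeaKDEck lists and in none of the MACS2 lists. Those 6 are also all the lists of Klf4-/- cells used here, so cells and caller cannot be told apart. It amounted to 3.80 and 3.14 times the density of the other autosomes in WT and 4.36 and 4.60 times in the mutant. Of the shared regions, 13.3% of WT only, 22.7% of common and 23.8% of mutant only regions were there. The copy number of chromosome 8 was not measured, and its part in the lists was not tested. Without chromosome 8, an alternative chosen after seeing the data, 1916 WT and 530 mutant regions remained, of which 150 WT regions were common, and the share with the core was 31.1% in WT only and 0.526% in mutant only regions, so the contrast was as large without it.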

How the data were processed

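Members and gene lists were chosen with earlier results of these data known. The submitters' processing notes name Trim Galore 0.4.4, Bowtie2, Bismark 0.18.1 and SAMtools 1.3, with mm10 as the build. Each deposited PeaKDEck list, called by the authors on 1 sample, holds the p-value of its peaks. The deposited MACS2 lists hold a fold enrichment, which is a ratio. For methylation the authors deposited a percent per cytosine over merged replicates. An earlier version that weighted cytosines by reads, with at least 5 reads each, had been seen before the mean over cytosines was chosen, and it gave lower values for WT only regions and M-ATAC peaks in the same order. Expression is the authors' TPM over merged replicates, with no aligner or annotation given. Of its 47606 genes, 47187 matched GENCODE M21.

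Overlapping entries of a list were merged, with the smallest p kept. Overlap meant at least 1 bp. Regions were stretches covered by both replicates without overlap to either Klf4-/- list. Groups came from the labels, and genotypes (2 samples each) were set against each other with the exact two-sided permutation test (smallest p 0.333), adjusted by Benjamini-Hochberg over 8 measures. Shares of regions have 95% Wilson intervals for counting error and no test. The depth of the subsampled reads is not given, and list size limits how many regions can be shared. The overlap and test steps were tested on simulated data. Genes named were from those of the lists with a shared region within 3 kb of a start, the nearest protein-coding genes of the 10 WT only, 5 common and 5 mutant only regions with the smallest p in the weaker replicate (ties by longer stretch, then position), and Klf4. List genes nearest to a shared region at any distance were named beside these after their values were seen. Alternatives changed the p threshold, list sizes, overlap, removal of Klf4-/- peaks, promoter width, CTCF and ATAC lists, TPM scale, motif window, repeats and each replicate. No list under the KLF4-M-ChIP samples was among the files used, and reads and signal tracks were not analysed here. The work was done with samtools 1.23.1, pandas 2.3.3, numpy 2.4.6 and python 3.11.15.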

Additional observations from a re-analysis of the deposited data

Results flagged for a closer look

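Among the 4 M-ATAC samples of mESC, replicate 4 stood apart from the others in its overlap with mutant only regions: it touched 1 of them (0.200%), and each of the other samples touched 2 (0.401%). The rule flagged it because Dixon's ratio was 1, above its critical value for 4 samples. With 3 samples tied, any difference of the other gives a ratio of 1, so the usual rate of about 1 chance flag in 20 groups does not apply, and nothing was read from it. The difference was a single region, and its cause was not tested.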

How the results depend on the processing

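Of 80 alternatives for the 8 measures per sample, 78 kept their direction, and no p passed 0.05 in any, which this design cannot reach. Leaving out a replicate could not reverse a measure, since both WT samples lay on the same side of both mutant samples in each. The replicate block repeats the main difference by construction. Those that reversed were both for the median -log10 p, at 0.271 with p at or below 4.02e-05 and 0.199 with equal list sizes. Equal sizes leave no difference in the number of peaks by construction. In the replicate block, paired by number, the differences were 17.9 percentage points for promoters, 4.37 for CTCF, 31.2 for M-ATAC, 8.87 for Klf4-/- peaks and 15.8 for the KLF core, 4273.5 peaks, 1.3 TPM and -0.0948 in median -log10 p (exact sign-flip test, p = 0.5, the smallest possible). Samples of the same number deviated from their group mean in the same direction in 4 of 8 measures, among them the promoter, CTCF, M-ATAC and core shares, and whether they share a batch was not tested.

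The shared regions moved by construction where fewer peaks or replicates were required. With p at or below 4.02e-05 there were 1142 WT, 450 mutant and 127 common regions, and with equal list sizes 1332 WT and 631 mutant regions. No removal of Klf4-/- peaks gave 3408 WT and 359 common regions, and leaving out soft-masked regions gave 195 mutant and 62 common ones. Leaving out 1 replicate gave 2232 to 9639 WT, 693 to 6383 mutant and 276 to 349 common regions.

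No difference between WT only and mutant only regions reversed in 55 alternatives, and 21 moved beyond the counting interval. In percentage points, the M-ATAC difference of 52.6 became 60.7 with p at or below 4.02e-05, 59.8 with equal sizes, 60.7 with no removal, 55.9 with removal by regions shared by both Klf4-/- lists and 62.2 without soft-masked regions. The KLF core difference of 30.6 became 35.7, 35.4 and, without soft-masked regions, 33.6. With no removal the promoter difference of 33.3 became 37.4 and the CTCF difference of 6.71 became 9.27, and without soft-masked regions the latter was 8.05. Leaving out 1 replicate gave 16.1 to 31.7 for promoters, 3.27 to 6.79 for CTCF, 21.2 to 55.4 for M-ATAC, 13.3 to 31.1 for the core and 9.81 to 14.1 for nearest genes at 1 TPM or more. The causes were not tested. Limits were 2 samples a group, no read depth, peak p-values that end at 1e-12, and measures of chromatin and expression taken from other cells.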

Other observations

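Other motifs were counted in the same windows, and these were chosen after the lists were examined. The GC box GGGCGGGG, which SP factors bind, stood in 20.9% of WT only windows, in 0 of 194 common and in 0 of 499 mutant only windows, beside 8.50% of merged M-ATAC peaks and 13.6% of windows at protein-coding starts. Within M-ATAC peaks 34.3% of WT only windows held it, and outside them 5.58% did. At promoters the GC box stood in 33.7% of WT only windows and in 16.2% of merged M-ATAC peaks. The octamer ATTTGCAT of POU factors stood in 0.883% of WT only, 0.515% of common and 1.80% of mutant only windows, beside 3.32% of merged M-ATAC peaks, 3.01% of regions in both Klf4-/- lists, 1.73% of genome windows and 0.759% of windows at protein-coding starts. The ESRRB site TCAAGGTCA stood in 0.540% of WT only windows and 1.12% of merged M-ATAC peaks. A match is a description, and letters on both strands were counted.

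The X chromosome makes up 6.28% of the genome and held 0.354% and 0.502% of the regions of WT replicates 1 and 2, 0.200% and 0.289% of those of mutant replicates 1 and 2, and 1.45% and 1.90% of those of the Klf4-/- lists. In the 14 MACS2 lists of KH2 mESC it held 1.39% to 2.82%.

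The strongest WT peaks were the ones most often met in cells without KLF4. At the smallest p in the lists, 63.5% and 63.2% of the regions of WT replicates 1 and 2 and 44.2% and 50.9% of those of mutant replicates 1 and 2 overlapped a Klf4-/- peak, while with p above 1e-05 the shares were 12%, 13.1%, 5.87% and 5.92%. In WT replicate 2 the KLF core stood in 42.4% of regions with p between 1e-12 and 1e-06, in 28.2% at 1e-12 and in 16.9% above 1e-05. In WT replicate 1 the shares were 26.8%, 25.7% and 12.2%, so the fall at the strongest peaks was slight there, and it was not tested.

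H60c was the nearest protein-coding gene to a strong common and to a strong mutant only region. Both lay near the start of chromosome 10, at chr10:3115951-3117200 and chr10:3112601-3112900, in windows with 11 and 10 copies of the word CTGCACAC, so that neighbouring copies of one repeat fell in different sets.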
